A study of Mus musculus with 4 samples.

Results

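The 10 genes described here encode the subunits that tell apart the 3 forms of the mammalian SWI/SNF (BAF) chromatin remodelling complex. They were chosen by name. Arid1a, Arid1b and Dpf2 define BAF itself, Arid2, Pbrm1, Brd7 and Phf10 define the polybromo form (PBAF), and Brd9, Gltscr1 and Gltscr1l define the non-canonical form (ncBAF). All 10 were among the 24428 genes in the count tables, and all 10 passed the filter on low counts that kept 15763 genes. Gltscr1 and Gltscr1l are the older symbols of Bicra and Bicral.

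RNA-seq was done on mouse embryonic stem cells of strain 129SvEv at passages 15 to 20, grown in medium with 15% serum and LIF (leukaemia inhibitory factor, a cytokine that keeps stem cells undifferentiated) and left untreated. In all cells 1 Smarca4 allele was wild-type and fused to GFP. The other carried a V5 epitope tag, and was wild-type in the WT group and G784E in the G784E group. Smarca4 encodes an ATPase of the complex, and the study's title calls G784E dominant-negative. Each group had 2 libraries, 4 in all. The labels do not say whether replicates were separate cultures or whether a line was 1 clone, so the p-values measure a spread between libraries that may be only technical.

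All 3 forms are built around Smarca4 or its paralogue Smarca2 and use the energy of ATP to move or evict nucleosomes. A scaffold subunit commits a complex to one form: Arid1a or Arid1b to BAF, Arid2 to PBAF, and Gltscr1 or Gltscr1l to ncBAF. The remaining defining subunits carry bromodomains or PHD fingers, folds that bind modified histone tails. In embryonic stem cells the BAF form is rich in Arid1a and is known for its part in self-renewal, and the ncBAF subunit Brd9 is known for its part in naive pluripotency.

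Between 6226145 and 10083442 reads per library were counted in genes. At that depth 1 count was worth 0.102 to 0.164 CPM, the unit used below (counts relative to library size, scaled by the TMM method). The 10 genes had between 126 and 8833 counts per library. Of 12 pluripotency markers none passed edgeR's test for a difference between groups after adjustment (2 did at an unadjusted p under 0.05), and their summed level was 2943 and 3275 CPM in WT and 3382 and 3438 CPM in G784E. The 2 highest of them were Utf1 and Tfcp2l1. Some markers of other cell types differed between the genotypes. Of 17 tested endoderm markers (20 listed), 14 fell in G784E, and the list's summed level was 8976 and 9382 CPM in WT against 1903 and 1969 CPM in G784E, with Lamc1 and Sparc highest. Of 11 trophectoderm markers 4 fell (169 and 169 CPM in WT against 93.8 and 80.9 CPM summed; Krt18 and Tead4 highest). In the other 2 lists a single gene passed. Of 12 tested fibroblast markers 1, Cald1, fell, and the rest of the list, with Col1a1 highest, summed to 121 and 80.1 CPM in WT and 109.96 and 103 CPM in G784E (328 and 271 against 218 and 200.1 CPM with Cald1). Of 6 neural markers 1, Stmn2, rose, and the rest, with Nes highest, summed to 48.2 and 40.5 CPM in WT and 60.9 and 48.2 CPM in G784E (170.5 and 176 against 279 and 302 CPM with Stmn2). No marker was at 0 in all libraries. The part of these markers in the levels below was not tested. In such bulk samples, fewer cells of a type and less RNA per cell cannot be told apart.

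None of the 10 defining subunits passed the test between G784E and WT. In edgeR's quasi-likelihood test with Benjamini-Hochberg adjustment over all tested genes, 2.56% of genes (404 of 15763) passed the threshold of 0.05, 298 of them lower in G784E (1.89%) and 106 higher (0.672%). The adjusted p of the 10 ran from 0.546 to 1. At an unadjusted p under 0.05, where 11.6% of all genes lay, there was also none of the 10. DESeq2 (3.2% of genes) and limma-voom (3.49%) called none of them either. Log2 fold changes, given throughout as G784E over WT, ran from -0.13 (Arid2) to 0.39 (Gltscr1), with a median of 0.05 and a median size of 0.10. Over all tested genes the median was -0.0016 and the median size 0.31. The sizes are not matched for level: the 10 lay at percentiles 69.4 (Brd9) to 99.3 (Arid1a) of level. Their SEs were at most 0.29, against up to 1.98 over all tested genes.

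The 95% intervals of the 10 fold changes (unadjusted, from the same edgeR fit) reached no further than -0.58 and 0.84 on the log2 scale, so that with all 4 libraries none included a 2-fold change in either direction. This bound does not hold with a library left out: with G784E replicate 2 left out the interval of Brd9 reached -1.22, with WT replicate 1 left out it reached 1.02, and that of Gltscr1 reached 1.003 and 1.06 without WT replicate 1 and WT replicate 2. Smaller changes are within these intervals, and the missed threshold does not show that the levels were the same.

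**Figure D1:**
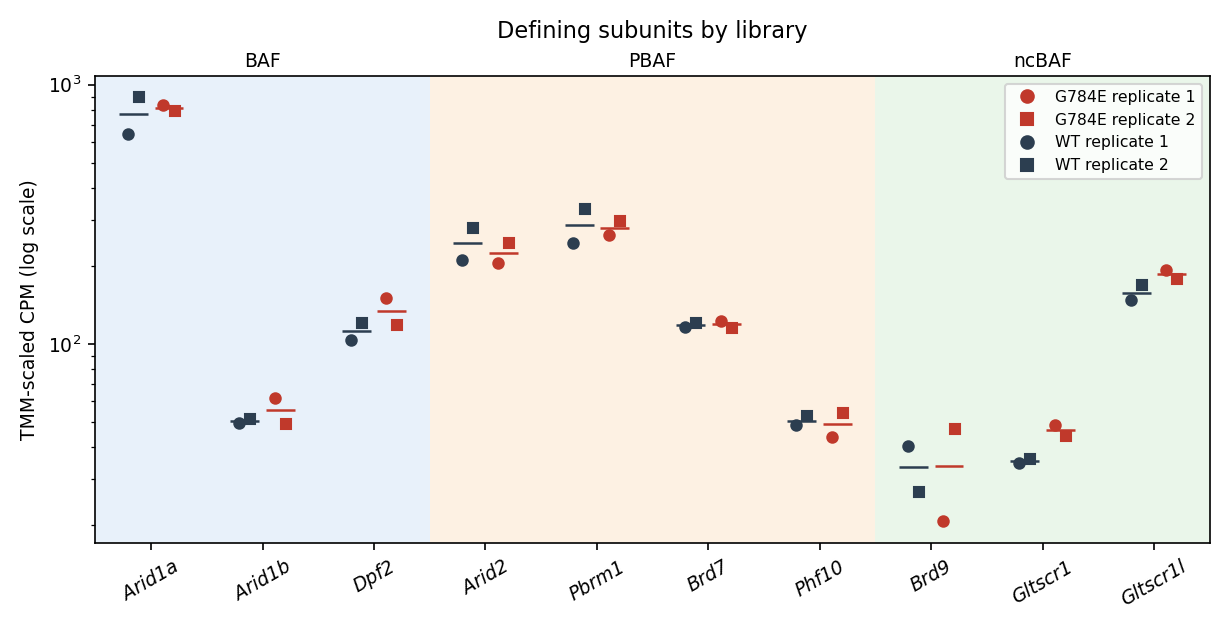
Levels of the 10 defining subunits in each of the 4 libraries, in TMM-scaled CPM on a log axis, grouped by complex; horizontal bars are group means of 2 libraries. The WT and G784E points of 8 genes overlap, those of Gltscr1 and Gltscr1l do not, and the points of Brd9 are the most spread, from 20.6 to 46.9 CPM.

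Among the BAF subunits, the groups overlapped for all 3. Arid1a, the large AT-rich DNA-binding scaffold of BAF, stood at 647 and 897 CPM in the WT libraries and at 833 and 792 CPM in the G784E libraries. Both G784E values lay between the 2 WT values. The means were 772 ± 177 CPM in WT and 812 ± 29.3 CPM in G784E (SD, n = 2), with a log2 fold change of 0.07 (SE 0.20, 95% interval -0.35 to 0.50; edgeR, adjusted p = 0.996).

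Arid1b, the paralogue that can take the place of Arid1a, stood at 49.4 and 51.2 CPM in WT and at 61.7 and 49.0 CPM in G784E. G784E replicate 1 was the highest of the 4 libraries and G784E replicate 2 the lowest. The log2 fold change was 0.14 (SE 0.21, 95% interval -0.31 to 0.58; edgeR, adjusted p = 0.963).

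Dpf2 encodes a protein with a pair of PHD fingers that reads acylated histone tails. It stood at 103 and 120.01 CPM in WT and at 150.4 and 118 CPM in G784E. Its G784E libraries differed from each other by more than the group means did, with replicate 1 above both WT libraries and replicate 2 between them. The log2 fold change was 0.26 (SE 0.21, 95% interval -0.16 to 0.69; edgeR, adjusted p = 0.766).

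For the PBAF subunits, log2 fold changes were -0.13 to 0.01 and the groups overlapped for all 4. Arid2, the scaffold that takes the place of Arid1a or Arid1b in PBAF, stood at 210.5 and 281 CPM in WT and at 205 and 244 CPM in G784E. In both groups replicate 2 was the higher library. The log2 fold change was -0.13 (SE 0.21, 95% interval -0.56 to 0.30; edgeR, adjusted p = 0.966).

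Pbrm1, which encodes polybromo, a protein with a row of bromodomains, stood at 245 and 330.3 CPM in WT and at 263 and 298 CPM in G784E. As with Arid1a, both G784E values lay between the WT values. The log2 fold change was -0.04 (SE 0.21, 95% interval -0.46 to 0.39; edgeR, adjusted p = 1).

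Brd7, a bromodomain protein of PBAF, varied least over the 4 libraries. It stood at 116 and 120.2 CPM in WT and at 123 and 115 CPM in G784E, and the highest library was 1.07 times the lowest. The means were 118 ± 3.11 CPM and 119 ± 5.40 CPM (SD, n = 2), and the log2 fold change was 0.01 (SE 0.20). Its 95% interval, -0.40 to 0.42, corresponds to 0.758-fold to 1.34-fold.

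Phf10, a PHD-finger protein of PBAF, stood at 48.5 and 52.5 CPM in WT and at 43.7 and 53.9 CPM in G784E. The G784E libraries enclosed the WT libraries. The log2 fold change was -0.05 (SE 0.21, 95% interval -0.49 to 0.40; edgeR, adjusted p = 1). Of the exon bases of Phf10, 10.6% overlap the gene 1600012H06Rik on the opposite strand, whose reads cannot be told apart without a strand setting.

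Of the ncBAF subunits, the paralogous scaffold genes lay higher in both G784E libraries than in either WT library, without passing the test. Gltscr1 stood at 34.7 and 36.0 CPM in WT and at 48.6 and 44.2 CPM in G784E. The means were 35.4 ± 0.929 CPM and 46.4 ± 3.13 CPM (SD, n = 2). Its log2 fold change of 0.39 was the highest of the 10 (SE 0.22, 95% interval -0.06 to 0.84; edgeR, adjusted p = 0.546). Gltscr1l stood at 147 and 168 CPM in WT and at 193 and 178 CPM in G784E, with a log2 fold change of 0.24 (SE 0.20, 95% interval -0.17 to 0.65; edgeR, adjusted p = 0.799). Of the exon bases of Gltscr1l, 11.6% overlap another gene, Gm26904, on the opposite strand. Gm26904 was not among the genes counted, and without a strand setting its reads cannot be told apart from those of Gltscr1l.

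Groups that do not overlap are common with 2 libraries a group. Over all tested genes, 19.4% lay higher in both G784E libraries than in either WT library and 19.4% lay lower in both. The 2 of 10 members that lay higher, with none lower, are near that background.

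Brd9, the bromodomain subunit of ncBAF and a close relative of Brd7, differed more within the groups than between them. It stood at 40.3 and 26.9 CPM in WT and at 20.6 and 46.9 CPM in G784E, from 305 and 265 counts in WT and 126 and 398 counts in G784E. Replicate 1 was the higher library in WT and the lower one in G784E. The group means of 33.6 ± 9.45 CPM (WT) and 33.7 ± 18.6 CPM (G784E; SD, n = 2) were alike, and the log2 fold change of 0.02 had the largest error of the 10 (SE 0.29, 95% interval -0.58 to 0.63).

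Few genes were spread as widely as Brd9 within the groups. The higher G784E library was 2.27 times the lower one, a ratio reached or passed by 1.10% of the 8273 genes with a mean of at least 10 CPM, where the median was 1.19. The WT libraries differed 1.497-fold, reached or passed by 6.61% of those genes (median 1.16). Both ratios together were reached or passed by 0.326% of those genes. The genes were not matched to Brd9 for level, and Brd9 was singled out here as the most spread of the 10. Among the other 9 members the within-group ratios ran from 1.04 to 1.39.

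**Figure D2:**
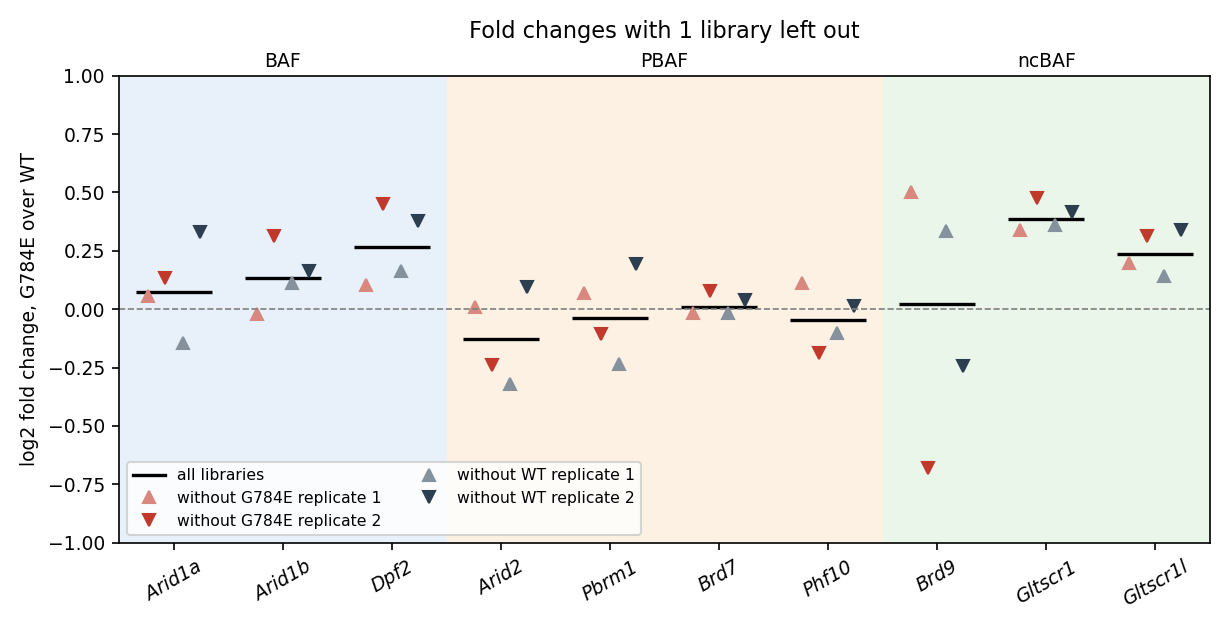
Log2 fold change (G784E over WT) of each defining subunit with all 4 libraries (black bars) and with 1 library left out (triangles), from edgeR. Without one or the other G784E library, Brd9 moves from -0.68 to 0.50, while Dpf2, Gltscr1 and Gltscr1l stay above 0 in all 4 cases.

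Leaving out single libraries moved Brd9 further than any other member. Its log2 fold change was 0.50 without G784E replicate 1 (edgeR, adjusted p = 0.297) and -0.68 without G784E replicate 2 (edgeR, adjusted p = 0.141). It was 0.34 without WT replicate 1 and -0.24 without WT replicate 2. Dpf2, Gltscr1 and Gltscr1l were the 3 members on 1 side of 0 with any single library left out. For Gltscr1 and Gltscr1l this largely follows from groups that do not overlap. The share of all tested genes that stay on 1 side was not computed. Dpf2 ran from 0.10 to 0.45, with the low end without G784E replicate 1, and Gltscr1l ran from 0.14 to 0.34, with the low end without WT replicate 1. Gltscr1 ran from 0.34 to 0.48.

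Within libraries of the same replicate number, 3 of the 10 genes had the same direction in both numbers. Gltscr1 was higher in G784E by 0.48 and 0.29 on the log2 scale and Gltscr1l by 0.39 and 0.08. For Gltscr1 and Gltscr1l the shared direction follows from groups that do not overlap, and is no further result. Arid2 was lower by -0.04 and -0.20. Brd9 had the widest gap, -0.97 among the libraries numbered 1 and 0.80 among those numbered 2. These are ratios of single libraries and carry no test, and the share of all tested genes with the same direction in both numbers was not computed.

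Shares within a library do not depend on the scaling between libraries, and they show how the counts of the paralogues split. They are shares of raw counts, not scaled for exon length, so they are not shares of transcripts. Arid1a took nearly all counts of the BAF scaffold pair. Its share of the counts of Arid1a and Arid1b was 92.9% (95% Wilson interval 92.2% to 93.6%) and 94.6% (94.1% to 95.04%) in the WT libraries, and 93.1% (92.4% to 93.7%) and 94.2% (93.6% to 94.7%) in the G784E libraries. Replicate 2 had the larger share in both groups. The intervals of the 2 WT libraries did not touch, while the group means, 93.8% and 93.6%, were 0.115 percentage points apart. The intervals cover counting error only.

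For the ncBAF scaffolds, Gltscr1 held 19.1% (95% Wilson interval 17.1% to 21.3%) and 17.6% (16.03% to 19.4%) of the counts of Gltscr1 and Gltscr1l in WT, and 20.1% (18.1% to 22.2%) and 19.9% (18.1% to 21.7%) in G784E. Both G784E shares lay above both WT shares, and the counting intervals of all 4 libraries overlapped. The difference of the means was 1.599 percentage points.

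Arid2 held 23.2% (95% Wilson interval 22.2% to 24.2%) and 22.9% (22.1% to 23.6%) of the counts of the 3 ARID scaffold genes in WT, and 18.7% (17.8% to 19.6%) and 22.5% (21.7% to 23.4%) in G784E. The lower G784E mean, 20.6% against 23.0% in WT, came mainly from G784E replicate 1. Without that library the difference was -0.534 percentage points, in place of -2.46.

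Brd9 held 25.8% (95% Wilson interval 23.4% to 28.4%) and 18.3% (16.4% to 20.4%) of the counts of Brd9 and Brd7 in WT, and 14.4% (12.2% to 16.9%) and 28.9% (26.6% to 31.4%) in G784E. Here the 2 libraries of a group differed beyond counting error in both groups, while the group means were 22.0% and 21.7%. No test is given for the shares: with 2 libraries against 2, an exact two-sided permutation test cannot go below p = 0.333.

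**Figure D3:**
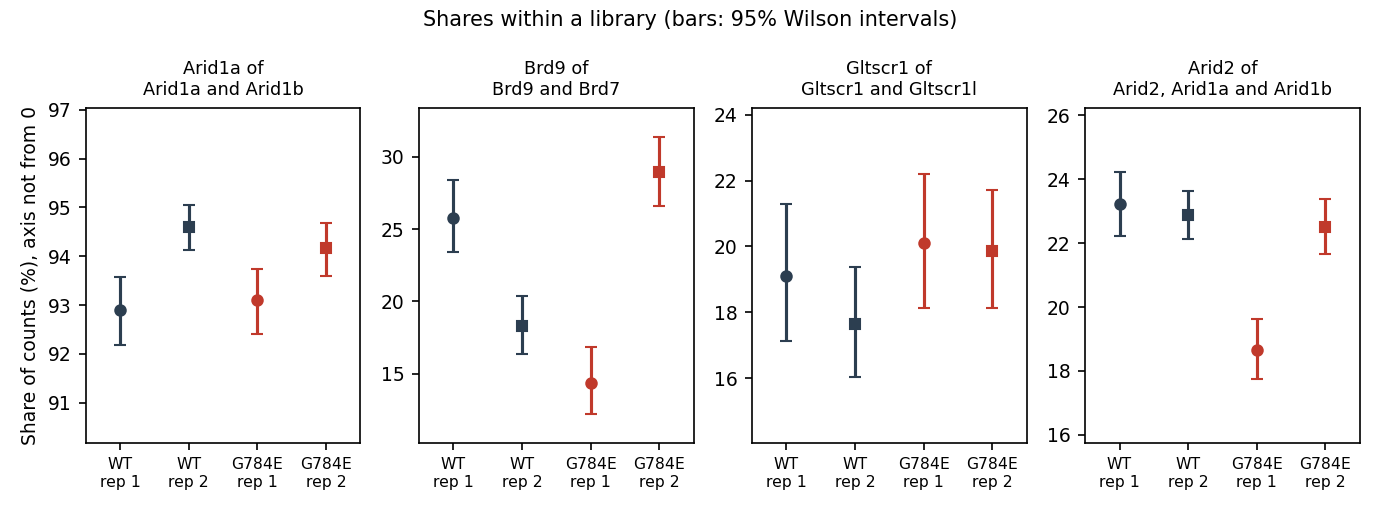
Share of counts of each paralogue or scaffold within each library, in percent on axes that do not start at 0, with 95% Wilson intervals that cover counting error only. The Arid1a share stays between 92.9% and 94.6%, and the Brd9 share runs from 14.4% to 28.9% with the high and low libraries crossed between the groups.

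Levels of different genes were compared per length, as CPM of all gene counts (before TMM scaling) per kilobase of exon. Arid1a was the most abundant of the 10 in both groups, at 81.3 and 102 per kilobase in WT and 95.5 and 88.2 in G784E. In WT it was followed by Pbrm1 (mean 36.2), Dpf2 (34.1), Brd7 (33.4), Phf10 (31.1), Arid2 (28.6), Gltscr1l (24.3), Brd9 (14.3), Gltscr1 (6.08) and Arid1b (4.503). The WT libraries of Pbrm1 and Dpf2 overlapped, as did those of Dpf2 and Brd7 and those of Phf10 and Arid2. The other neighbours in this order did not overlap.

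In G784E the order was the same but for 2 pairs of neighbours. Dpf2 (mean 38.8) came before Pbrm1 (33.4), and Gltscr1l (27.1) before Arid2 (24.8). The libraries of Dpf2 and Pbrm1 overlapped in each group. Those of Gltscr1l and Arid2 overlapped in G784E and not in WT.

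At the low end, Gltscr1 lay at 6.26 and 5.89 per kilobase in WT and 7.98 and 7.05 in G784E, and Arid1b at 4.64 and 4.36 in WT and 5.28 and 4.08 in G784E. Both were well above the level of reads in olfactory receptor genes, taken as a background because these genes belong to the sensory neurons of the nose. That background was 0.192 and 0.0786 per kilobase in G784E and 0.194 and 0.0537 in WT. Arid1b, the lowest member, was 23.98 to 81.2 times as high in the 4 libraries.

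**Figure D4:**
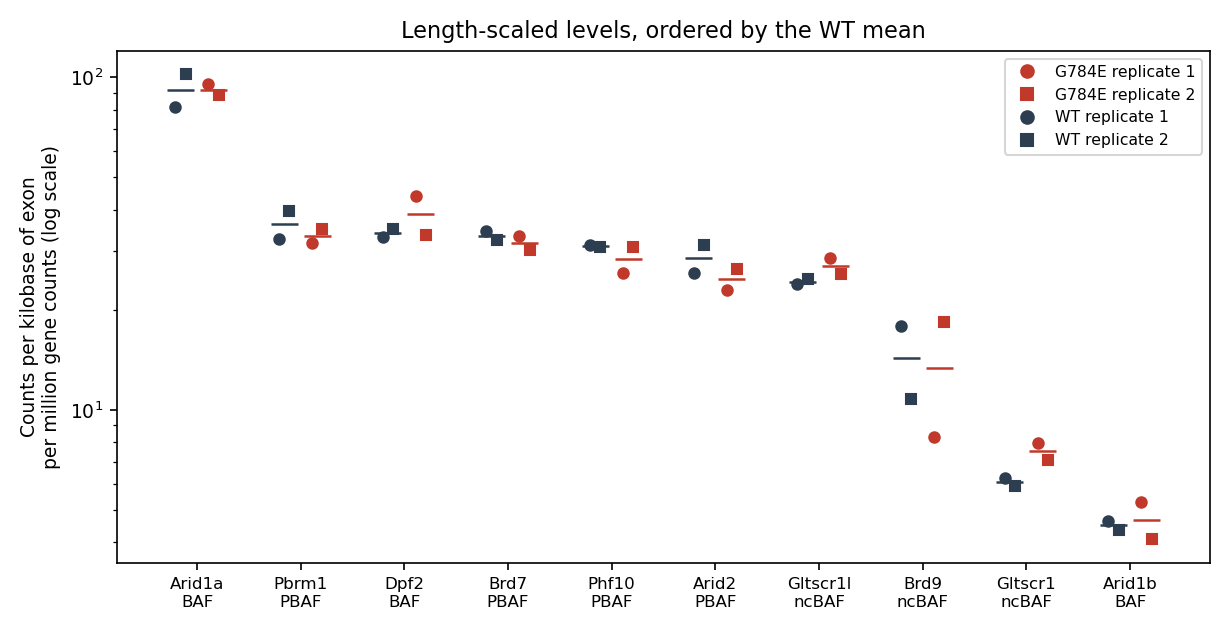
Length-scaled levels of the 10 defining subunits in each library, in CPM per kilobase of exon on a log axis, ordered by the WT mean; horizontal bars are group means of 2 libraries. Arid1a stands above the rest, the 6 genes from Pbrm1 to Gltscr1l lie close together, and Brd9, Gltscr1 and Arid1b are lowest.

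When the length-scaled levels were averaged over the members of each complex, the BAF subunits made up 45.8% and 49.9% of the 3 class means in WT and 52.6% and 46.8% in G784E. The PBAF subunits made up 35.8% and 35.5% in WT and 31.04% and 34.2% in G784E. The ncBAF subunits made up 18.4% and 14.6% in WT and 16.3% and 19.0% in G784E. The groups overlapped for BAF and ncBAF. The PBAF share was lower in both G784E libraries, by 3.0 percentage points of the means, and by 1.41 without G784E replicate 1. Class shares sum to a whole, so they do not move independently, and Arid1a alone sets most of the BAF share.

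Among the 20 tested of 21 listed shared and other subunits of the complexes, 1 passed as lower in G784E, none passed as higher and 19 did not pass. Of the 20, 8 lay higher in both G784E libraries than in either WT library, and 1 lay lower in both. Over all tested genes 19.4% lay higher in this way and 19.4% lower. The 20 were not matched for level, and no test was made of this count. The median log2 fold change was 0.20. The 1 that fell was the alternative ATPase gene Smarca2, from 41.7 and 40.7 CPM in WT to 8.34 and 7.66 CPM in G784E, and passed under each of the 12 alternatives as well. Its log2 fold change was -2.37 (SE 0.26; edgeR, adjusted p = 3.1e-06). Smarca4 had a log2 fold change of 0.58 (SE 0.19; edgeR, adjusted p = 0.119). Some other procedures did call it: DESeq2 gave an adjusted p of 0.00808, limma-voom one of 0.03, and upper-quartile scaling within edgeR one of 0.0108. A replicate block in edgeR gave 1.59e-05. Other edgeR settings did not call Smarca4: the adjusted p was 0.175 with RLE scaling and 0.764 with no filter. It was 0.0806 with a stricter filter and 0.128 without Rn45s. Counts of the wild-type and G784E alleles of Smarca4 cannot be told apart. Of the relatives of Dpf2, named here after their values were seen, Dpf1 stood at 4.36 and 4.47 CPM in WT and at 6.71 and 9.54 CPM in G784E and did not pass (edgeR, log2 fold change 0.88, SE 0.47, adjusted p = 0.515). Dpf3, with at most 3 counts in any library, was not tested.

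**Figure D5:**
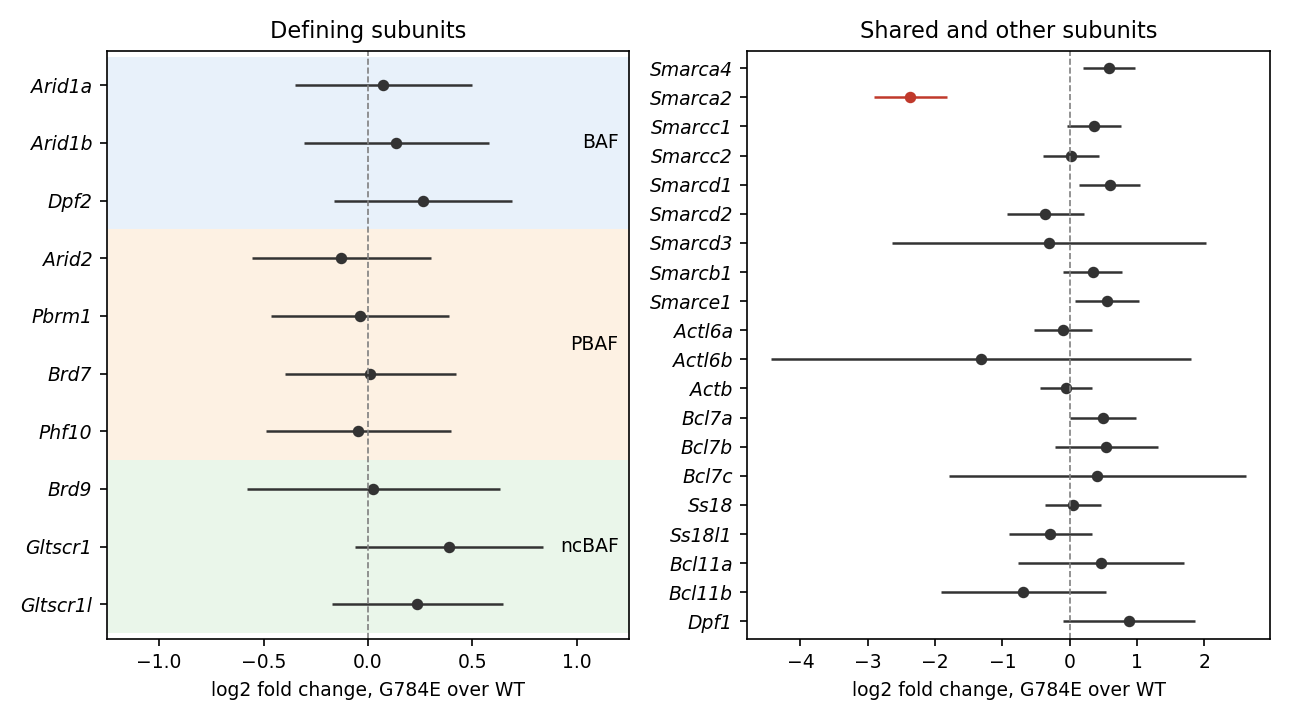
Log2 fold changes (G784E over WT, x axes with different ranges) with unadjusted 95% intervals from edgeR, for the 10 defining subunits (left) and 20 tested shared and other subunits (right). All 10 intervals on the left include 0, and Smarca2, in red, is the gene on the right that passed after adjustment.

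Set against the ATPase, the defining subunits had fewer counts per Smarca4 count in G784E, a ratio added after the values were seen. Arid1a had 267 and 351 counts per 1000 Smarca4 counts in WT and 215 and 221 in G784E. For Brd7 the values were 47.8 and 47.1 in WT and 31.7 and 32.1 in G784E, and for Gltscr1, the member with the highest fold change, 14.3 and 14.1 in WT and 12.6 and 12.3 in G784E. In all, 9 of the 10 genes were lower in both G784E libraries than in either WT library and Brd9 overlapped. Over all tested genes, of any level, 60.6% were lower in this way and 2.25% higher. The highest log2 fold change of the 10 (0.39, Gltscr1) lay below that of Smarca4 (0.58), so lower mean ratios followed from the fold changes already given. The ratios all share the Smarca4 counts, which were higher in both G784E libraries (3868 and 3580 CPM) than in the WT libraries (2423 and 2553 CPM), and no test was made of them.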

How the data were processed

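For each library the authors deposited raw counts of reads per gene symbol. The submitters' processing notes name CASAVA 1.8.2, Bowtie2 2.1.0, HTSeq, DESeq2 and build mm9. The annotation, counting mode and strand setting were not given in the sources used here. Groups and replicate numbers came from the labels. Summary rows (83.3% to 88.7% of each table) did not enter library sizes or tests. Reads placed at more than 1 site, 55.4% to 61.8% of each table, are in those rows.

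The main test was edgeR 4.0.16 (R 4.3.3): TMM scaling, filterByExpr (minimum count 10, minimum total 15), group alone as the model with 2 residual degrees of freedom, and Benjamini-Hochberg adjustment over all tested genes. The SE was the log2 fold change divided by the square root of F. Its 95% interval used the test's own degrees of freedom. The libraries of a group differed beyond sampling noise (chi-square per degree of freedom 15.4 in G784E and 9.22 in WT). The procedures were also run on simulated counts. Neither the settings nor the results of that run are given here, so no conclusion on the tests or intervals is drawn from it.

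As alternatives the scaling was changed to RLE or upper quartile, the filter was dropped or made stricter (at least 50 counts in total, and 1 CPM in 2 libraries), and the tool was changed to limma-voom (limma 3.58.1) or DESeq2 1.42.0. Others were a replicate block, each library left out among the same genes, and library sizes without the ribosomal RNA gene Rn45s (10.02% to 16.0% of gene counts). Shares had Wilson intervals (scipy 1.17.1), which cover counting error only.

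Exon lengths and overlapping genes came from GENCODE M21 (basic set, GRCm38). Since the counts were made on mm9, coordinates are left out, and lengths may differ from those the authors counted over. The symbols of all 10 members matched, Gltscr1 and Gltscr1l through RefSeq synonyms. Of 1107 olfactory receptor genes, 1097 had a length. Named genes were all 10 members, Smarca4, Smarca2 and other subunits past the threshold, and the 2 most counted members of each marker list; Dpf1, Dpf3, Smarcc1 and Smarcd1 fall outside this rule and were named after their values were seen. The members and lists were chosen with earlier results of these data known.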

Additional observations from a re-analysis of the deposited data

How the results depend on the processing

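None of the 10 defining subunits passed the threshold under any of the 12 alternatives, where their lowest adjusted p was 0.141 (Brd9 without G784E replicate 2, edgeR). The count of all genes called, 404, was 1204 with a replicate block and ran from 185 (without WT replicate 1) to 839 (without G784E replicate 2) with a library left out; it was 256 without WT replicate 2. The split of 298 lower and 106 higher became 658 and 546 with the replicate block, 156 and 29 without WT replicate 1, and 532 and 307 without G784E replicate 2. Same-numbered libraries deviated together (correlation over genes 0.487). Summary rows were 88.3% (G784E) and 88.7% (WT) of the replicate 1 tables, and 83.7% and 83.3% of the replicate 2 tables. There are only 2 pairs, and no label names a shared batch. The block called no member, but the SE of every member was smaller with it (Arid1a 0.11 in place of 0.20). The lowest unadjusted p of the members with the block was 0.051 (Gltscr1, edgeR). Among shared and other subunits, 1 call became 2 with upper-quartile scaling, in DESeq2 and in limma-voom (Smarca4 added), 4 with the replicate block (Smarca4, Smarcc1 and Smarcd1 added), and 1 to 2 with a library left out (Smarcd1 added without G784E replicate 2, log2 fold change 0.83). Directions near 0 turned. Brd7, at 0.01, was -0.029 with no filter and -0.024 without Rn45s. Brd9, at 0.02, was -0.010 with upper-quartile scaling, -0.0089 in limma-voom, -0.038 with the replicate block and -0.0078 without Rn45s. With a library left out, log2 fold changes ran from -0.14 to 0.33 (Arid1a), -0.019 to 0.32 (Arid1b), -0.32 to 0.095 (Arid2), -0.23 to 0.195 (Pbrm1), -0.018 to 0.077 (Brd7), -0.19 to 0.11 (Phf10) and -0.68 to 0.50 (Brd9). The cause was not tested. Differences in shares (G784E minus WT, in percentage points) turned sign when a library was left out for Arid1a (-0.964 to 0.735), Brd9 (-7.66 to 6.90), the BAF class (-1.05 to 4.79) and the ncBAF class (-0.773 to 3.03), and for Brd9 also with counts summed over a group (1.61). They ran from 0.86 to 2.34 for Gltscr1, -4.38 to -0.534 for Arid2 and -4.6 to -1.41 for the PBAF class. In these shares the groups did not overlap, so that leaving out 1 library could not turn the sign. The order of WT levels was the same with the longest transcript as length. With 1 residual degree of freedom, these fits take the lone library to vary as the pair does.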
